A study of Sus scrofa with 70 samples.

Results

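The testis of the boar makes sperm and testosterone. Germ cells divide, pass through meiosis and are remodelled into spermatids inside the seminiferous tubules, where Sertoli cells nourish them, and Leydig cells between the tubules produce steroids under the control of luteinizing hormone. Most messenger RNA of an adult testis comes from spermatocytes and spermatids, so a bulk library reports both how each cell type uses its genes and how many cells of each type were present. In bulk samples, fewer cells of a type and less RNA per cell cannot be told apart.

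Gene expression in testis was compared between 2 pig breeds with 6 RNA-seq libraries out of the 30 RNA-seq libraries and 70 samples of the series. The 3 libraries labelled DSE came from Diannan small-ear pigs, a Chinese population that is not inbred, and the 3 labelled BMI from the Banna mini-pig inbred line, which was derived from Diannan small-ear pigs by mating full siblings or parents with offspring. All donors were boars of 12 months with no treatment, and breed, inbreeding and herd cannot be told apart. Transcript abundances were summed to genes, the breeds were compared as DSE minus BMI, and the comparison was repeated without DSE replicate 2, which held fewer germ cell transcripts. TPM, the abundance of a transcript in a fixed total per library, is a relative unit, so a higher value of some genes lowers that of the others. Of 35552 genes in the table, 16319 reached at least 1 TPM in at least 3 of the 6 libraries and were tested. A gene was called at an adjusted p below 0.05 with at least a 2-fold difference on the log2(TPM + 1) scale, and a log2 fold change is given with its standard error.

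The tissue label held in all 6 libraries, where the protamine and transition protein genes of spermatids and the steroidogenic genes of Leydig cells were among the most abundant. *PRM1*, which packs the DNA of spermatids, reached 46809, 63619.8 and 54327 TPM in BMI replicates 1 to 3 and 71826, 18217 and 54358 TPM in DSE replicates 1 to 3. Replicate 2 of DSE was the low library. *INSL3*, the peptide hormone of Leydig cells, went the other way, with 11448, 12257 and 12008 TPM in BMI and 16566, 42359 and 23381 TPM in DSE. The markers were read together as the mean log2(TPM + 1) of each list. For 14 spermatid markers this was 10.79, 10.85 and 10.85 in BMI and 10.78, 8.88 and 10.62 in DSE, and for 12 spermatocyte markers 4.81, 5.08 and 4.89 and 4.53, 3.53 and 4.72. For 8 Leydig cell markers it was 9.63, 9.25 and 9.22 against 9.23, 10.87 and 9.81, and for 11 Sertoli cell markers 3.25, 3.50 and 3.34 against 3.28, 4.42 and 3.78. DSE replicate 2 was the lowest of the 6 libraries for all 14 spermatid and all 12 spermatocyte markers, and the highest for 8 of 8 Leydig and 10 of 11 Sertoli cell markers. Over all 16319 tested genes it was the lowest for 6649 and the highest for 6013, ties included. The remaining DSE libraries lay within 0.44 of the BMI mean in these 4 lists.

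**Figure D1:**
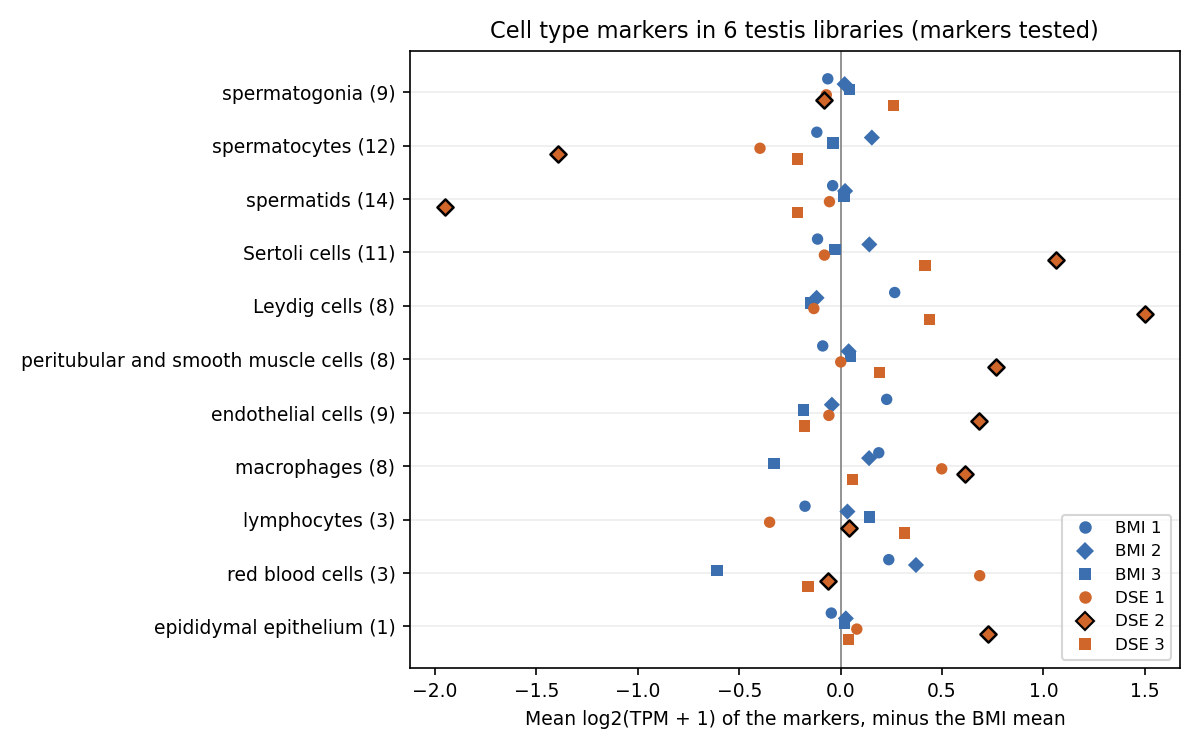
Marker lists of 11 cell types in the 6 testis libraries. The x axis gives the mean log2(TPM + 1) of the tested markers of a list minus the mean of the 3 BMI libraries, each point is a library, and the number of markers is in brackets. DSE 2, outlined in black, lies 1.95 below the BMI mean for spermatids and 1.50 above it for Leydig cells.

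The same library stood apart over all tested genes. It took the extreme position on the first principal component, which held 62.8% of the variance, and correlated with the other libraries at 0.845 to 0.905, against 0.981 to 0.984 among the BMI libraries. DSE replicates 1 and 3 correlated at 0.967. Between them, 7.30% of genes were at least 2-fold apart, against 1.86% to 2.16% between pairs of BMI libraries and 27.4% to 36.0% between replicate 2 and the other DSE libraries. Mitochondrial transcripts took 11.1% of the TPM in DSE replicate 2 and 3.81% to 5.61% elsewhere. Short genes were lower in replicate 2 than in the other DSE libraries, by a median log2 difference of -0.37 in the quartile with the shortest transcripts, while the quartile with the longest transcripts was higher by 0.24. Between 15666 and 16247 genes reached 1 TPM in a library. The breed comparison is therefore given with and without this library, and the part of transcript length in it was not tested.

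In the 6 libraries, 101 of 16319 genes were called between the breeds (0.619%), 36 higher in DSE (0.221%) and 65 lower (0.398%). At an unadjusted p below 0.05 there were 2225 genes (13.6%). All 101 genes had BMI and DSE libraries that did not overlap, as did 24.8% of all genes tested. Only 30 of the 101 carried a gene symbol, against 12301 of the 16319 tested. Annotated Ensembl genes made up 53 of the calls, and 32 were intergenic, 10 antisense and 6 fusion loci assembled by the authors from long reads, where 87.5%, 5.54%, 3.63% and 3.28% of the tested genes fell in these classes. All 10 antisense loci were lower in DSE. The mean level of the called genes was low, with a median of 5.55 TPM against 12.9 TPM for all tested genes. With all 6 libraries, no marker of the 11 cell types was called.

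Of the 13 called genes with a symbol that were higher in DSE, *GPX3* (chr16:71980468-71989026), the secreted glutathione peroxidase, was the most abundant. It was measured at 311, 461 and 313 TPM in BMI and at 1295, 2166 and 1350 TPM in DSE. All DSE libraries lay above all BMI libraries, with a log2 fold change of 2.13 ± 0.32 (limma adjusted p = 0.037) that was 1.89 without DSE replicate 2. *PSAT1*, an enzyme of serine synthesis, was measured at 58.8, 72.2 and 56.5 TPM in BMI and 151, 239 and 206 TPM in DSE, a difference of 1.64 ± 0.26 (limma adjusted p = 0.043). *MAOB*, the mitochondrial monoamine oxidase B, was measured at 1.65, 2.02 and 2.48 TPM and 9.52, 32.1 and 18.2 TPM, a difference of 2.64 ± 0.41. In both genes replicate 2 was the highest DSE library, and the groups did not overlap.

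*MGARP*, a mitochondrial protein abundant in steroid-producing tissue, reached 18.2, 15 and 24.2 TPM in BMI and 74.9, 269 and 144 TPM in DSE (log2 fold change 2.86 ± 0.45). Its DSE libraries were spread over more than 3-fold, with replicate 2, the library rich in Leydig cell transcripts, at the top. Without that library the difference was 2.41. *AKR1E2*, an aldo-keto reductase, was lower in abundance, at 1.45, 1.74 and 2.38 TPM in BMI and 7.08, 10 and 8.98 TPM in DSE. *GALNT4*, which starts mucin-type O-glycans, was measured at 0.685, 1.5 and 0.934 TPM and 9.81, 24 and 13 TPM. These 2 genes differed by 1.77 ± 0.25 and 2.95 ± 0.35, and no library of either breed reached the range of the other.

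Among called genes with a symbol, the largest increase was in *NPTX2*, and the next in *PACSIN1*. *NPTX2* (chr3:5720680-5732457), a secreted pentraxin that clusters glutamate receptors at synapses, was at 0.365, 0.235 and 0.562 TPM in BMI and at 43.8, 26 and 80.9 TPM in DSE. The log2 fold change was 5.07 ± 0.40 (limma adjusted p = 0.0029), and here replicate 2 was the lowest DSE library, so the difference was larger without it (5.45). *PACSIN1* (chr7:30459969-30512741), which bends membranes during endocytosis of synaptic vesicles, stayed under 0.1 TPM in each BMI library and reached 18.3, 14.2 and 25.1 TPM in DSE. The difference was 4.20 ± 0.26 (limma adjusted p = 0.0022). Both genes were called under all 19 alternatives to the test, as was *KRT36* among the decreases. The other called genes with a symbol lost the call under some of them, and the 30 genes were called under 10 to 19 alternatives, with a median of 13. *GPX3* was called under 10, *PSAT1*, *MGARP* and *CRTAC1* under 12 and *MAOB* under 13, and of the decreases *IGFBP5*, *GOLGA4* and *FGF19* under 10. *ADRA1D*, the alpha-1D adrenergic receptor, was at 0.704, 0.94 and 0.418 TPM in BMI and 11.3, 25.2 and 18.6 TPM in DSE. *GFAP*, the intermediate filament of glia, was at 0.0268, 0.149 and 0.155 TPM and 2.5, 3.84 and 4.04 TPM. The levels of *GFAP* were close to the 1 TPM of the filter, whereas the DSE libraries of *ADRA1D* lay well above it.

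The 3 other called increases with a symbol were in *KLHL31*, a kelch protein of muscle, and in the secreted proteins *C1QTNF5* and *CRTAC1*. *KLHL31* was under 0.1 TPM in each BMI library and at 3.7, 13.6 and 5.1 TPM in DSE. *C1QTNF5* was at 3.46, 2.66 and 2.42 TPM in BMI and 42.9, 41.2 and 12.9 TPM in DSE, where replicate 3 was the low library. *CRTAC1*, a protein of cartilage matrix, was at 7.38, 4.67 and 2.68 TPM and 27.3, 28 and 27.2 TPM, with DSE libraries nearly equal to each other. The 3 log2 fold changes were 2.87, 2.95 and 2.35.

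**Figure D2:**
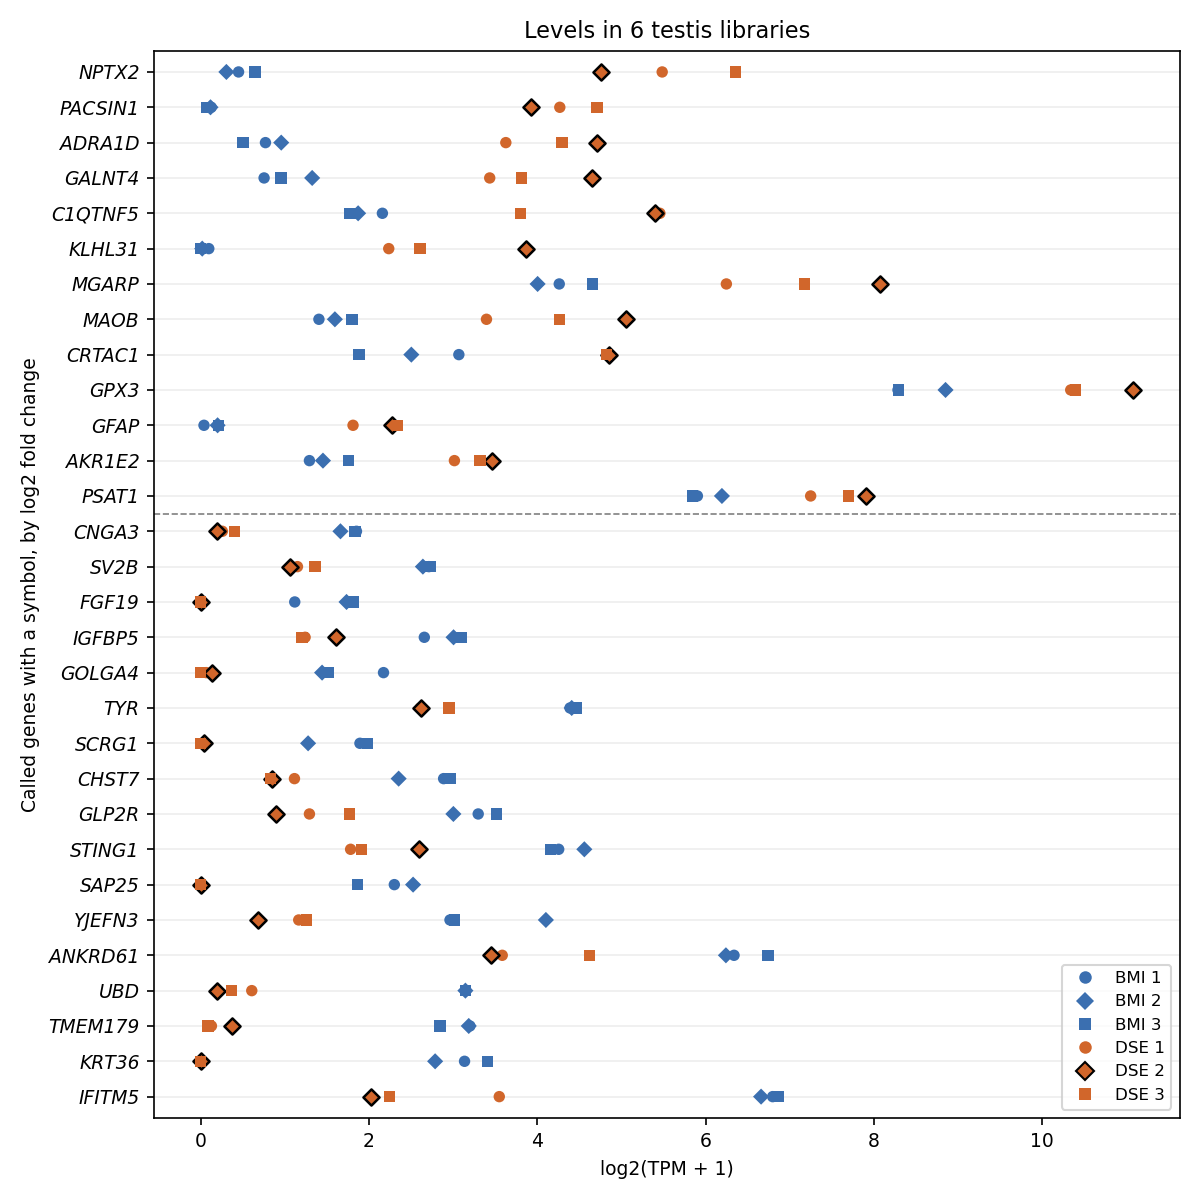
Levels of the 30 called genes with a symbol in each testis library, as log2(TPM + 1), ordered by log2 fold change. BMI libraries are blue and DSE libraries orange, DSE 2 is outlined in black, and the dashed line separates the 13 genes higher in DSE from the 17 lower. The breeds do not overlap in any of the genes, and DSE 2 is the highest DSE library in some, among them *KLHL31*, *MGARP* and *MAOB*.

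The 17 called genes with a symbol that were lower in DSE included *UBD*, *STING1* and *IFITM5*. *UBD* (chr7:22500605-22515506), a ubiquitin-like protein induced by interferon that lies beside the major histocompatibility complex, was at 7.88, 7.85 and 7.85 TPM in BMI and at 0.522, 0.146 and 0.289 TPM in DSE. The BMI libraries were almost equal, and the log2 fold change was -2.76 ± 0.22 (limma adjusted p = 0.0029). *STING1*, the sensor adaptor of cytosolic DNA signalling, was at 18.1, 22.6 and 16.9 TPM in BMI and 2.44, 5.05 and 2.77 TPM in DSE, a difference of -2.23 ± 0.29 (limma adjusted p = 0.023). *IFITM5* (chr2:107042-108460), a member of the interferon-induced transmembrane family known from bone-forming cells, was at 110.2, 100.1 and 116 TPM in BMI and 10.7, 3.06 and 3.74 TPM in DSE. At -4.17 ± 0.40 it was the largest called decrease with a symbol, and reads shared with other members of this gene family would leave its value uncertain. The list of 24 tested interferon response genes, which holds none of the 3, had no call, 14 members with a higher and 10 with a lower mean in DSE and a median log2 fold change of 0.07, against -0.10 over all genes.

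*TYR* (chr9:22517047-22604370), the enzyme that starts melanin synthesis, was measured at 19.9, 20.2 and 21 TPM in BMI and 5.1, 5.14 and 6.73 TPM in DSE, a difference of -1.69 ± 0.23 (limma adjusted p = 0.024). The spread within each breed was small against the difference between them. *IGFBP5*, which binds insulin-like growth factors, was at 5.31, 7.02 and 7.58 TPM in BMI and 1.36, 2.04 and 1.3 TPM in DSE, and *GLP2R*, the receptor of glucagon-like peptide 2, at 8.83, 7.01 and 10.4 TPM and 1.45, 0.855 and 2.41 TPM. *FGF19*, an endocrine growth factor of bile acid control, was listed at 0 in every DSE library and at 1.17, 2.32 and 2.51 TPM in BMI. *IGFBP5*, *GLP2R* and *FGF19* lay below the 12.9 TPM median of all tested genes in every library, and their breeds did not overlap.

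*ANKRD61*, an ankyrin repeat gene, was among the more abundant decreases, with 79.9, 74.7 and 106 TPM in BMI and 11, 9.97 and 23.6 TPM in DSE (log2 fold change -2.55 ± 0.35). *KRT36* (chr12:21149430-21160456), a hair keratin, was listed at 0 in every DSE library and at 7.78, 5.89 and 9.62 TPM in BMI (limma adjusted p = 0.0029). *SAP25*, a subunit of a histone deacetylase complex, was likewise listed at 0 in DSE and at 3.93, 4.75 and 2.64 TPM in BMI. A value listed at 0 does not show that *KRT36* or *SAP25* had no transcripts in DSE. *TMEM179*, a membrane protein gene on an unplaced scaffold, was at 8.18, 8.09 and 6.18 TPM in BMI and at no more than 0.292 TPM in DSE. *SV2B*, a synaptic vesicle glycoprotein, and *CNGA3*, a subunit of the cone photoreceptor channel, differed by -1.51 ± 0.21 and -1.50 ± 0.20. The last 4 decreases were *YJEFN3* (-2.32), the sulfotransferase gene *CHST7* (-1.80), *SCRG1* (-1.70) and *GOLGA4* (-1.64). The DSE libraries of *SCRG1* and *GOLGA4* were at or below 0.101 TPM. Whether strand was used in counting is not given in the sources used here, so reads of *ANKRD61*, *MGARP*, *SAP25*, *SCRG1*, *CHST7*, *CRTAC1*, *GALNT4*, *PACSIN1*, *UBD* and *TYR*, which overlap other RefSeq genes, may include those of a neighbour.

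Genes without a symbol made up 71 of the 101 calls and held the largest difference. The Ensembl gene ENSSSCG00000056213 (chr7:21236618-21245473) was at 65.5, 55.6 and 84.8 TPM in BMI and 0.454, 1.11 and 0.425 TPM in DSE, a log2 fold change of -5.39 ± 0.28 (limma adjusted p = 0.001). It lies near the swine leukocyte antigen (SLA) complex, which encodes the molecules that present peptides to T cells. The largest increase among called genes without a symbol, 4.32 ± 0.38 (limma adjusted p = 0.0055), was of a fusion locus of 2 Ensembl genes (chr7:22869147-22942727) that spans the RefSeq genes *SLA-1*, *SLA-2* and *SLA-3*. It was at 1.83, 0.699 and 0 TPM in BMI and 35, 35.2 and 28.1 TPM in DSE. The overlapping gene ENSSSCG00000060989 (chr7:22824426-22892770) was at 9.97, 11.6 and 12.6 TPM and 60.8, 65.8 and 48.9 TPM. These class I genes are near-identical copies and differ between haplotypes, so the division of reads among them is uncertain. With *UBD* and ENSSSCG00000032465, 5 called genes lay between 20 and 26 Mb of chromosome 7, out of 164 tested there, a window chosen after the values were seen. Against 0.619% of all tested genes, the highest shares were those of chromosome 10 with 7 calls among 401 genes (1.75%), chromosome 7 with 14 among 1046 (1.34%) and unplaced scaffolds with 11 among 340 (3.24%). These calls are not all separate loci. On chromosome 10, novelGene_558 and novelGene_559 share strand and end, and novelGene_3866 and novelGene_3867 overlap on opposite strands of an unplaced scaffold.

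The other extremes without a symbol were loci assembled from long reads. novelGene_2514 (chr4:79322940-79328431) was listed at 0 in every BMI library and at 30.5, 5.84 and 17.8 TPM in DSE. novelGene_691 (chr11:78173345-78174647) was at 119, 58.7 and 138 TPM in BMI and 4.4, 0.752 and 11.6 TPM in DSE. The 2 loci differed widely within DSE, by a factor of more than 5 between libraries. Of all 16319 genes, 26 were under 0.1 TPM in each library of one breed and at least 1 TPM in each library of the other, and 23 of these 26 were called. They were under 0.1 TPM in BMI for 11 of the called genes, among them *PACSIN1* and *KLHL31*, and in DSE for 12, among them *KRT36*, *SAP25*, *SCRG1* and *FGF19*. TPM hold no read counts per gene, so no counting interval can be given for these low values.

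DSE replicate 2 was then left out, and the scaling of the libraries was varied. Without DSE replicate 2, 301 genes were called (1.84%), 150 higher (0.919%) and 151 lower (0.925%) in DSE, and these included all 101 genes. Because the libraries of the breeds did not overlap for any of the 101, leaving out 1 library could not turn their direction. The direction was also kept with scaling to the Sertoli cell or the spermatid markers and with the spermatid score as a term of the model. These settings could hardly have turned it. A scaling shifts all genes of a library together, and the median of all genes moved from -0.10 to -0.48 (Sertoli cell) or 0.55 (spermatid). The smallest of the 101 differences in size was -1.29. The spermatid score was 8.88 in DSE replicate 2 and at least 10.62 elsewhere, so the covariate acts mainly on that library. At least a 2-fold difference in the same direction remained for all 36 increases and for 59 of 65 decreases under either scaling and without replicate 2. The calls themselves depended on the scaling. Sertoli cell scaling called 16 higher and 57 lower genes, of which 13 and 48 were among the 101. Spermatid scaling called 8 and 2, of which 6 and 2 were among them, and the covariate 144 and 122, of which 36 and 63 were. The number of called genes fell to between 20 and 26 when any BMI library was left out, with 7, 7 and 8 higher and 19, 13 and 17 lower genes without BMI replicates 1, 2 and 3. DSE replicate 3 also weighed on the count, with 222 lower genes without it.

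**Figure D3:**
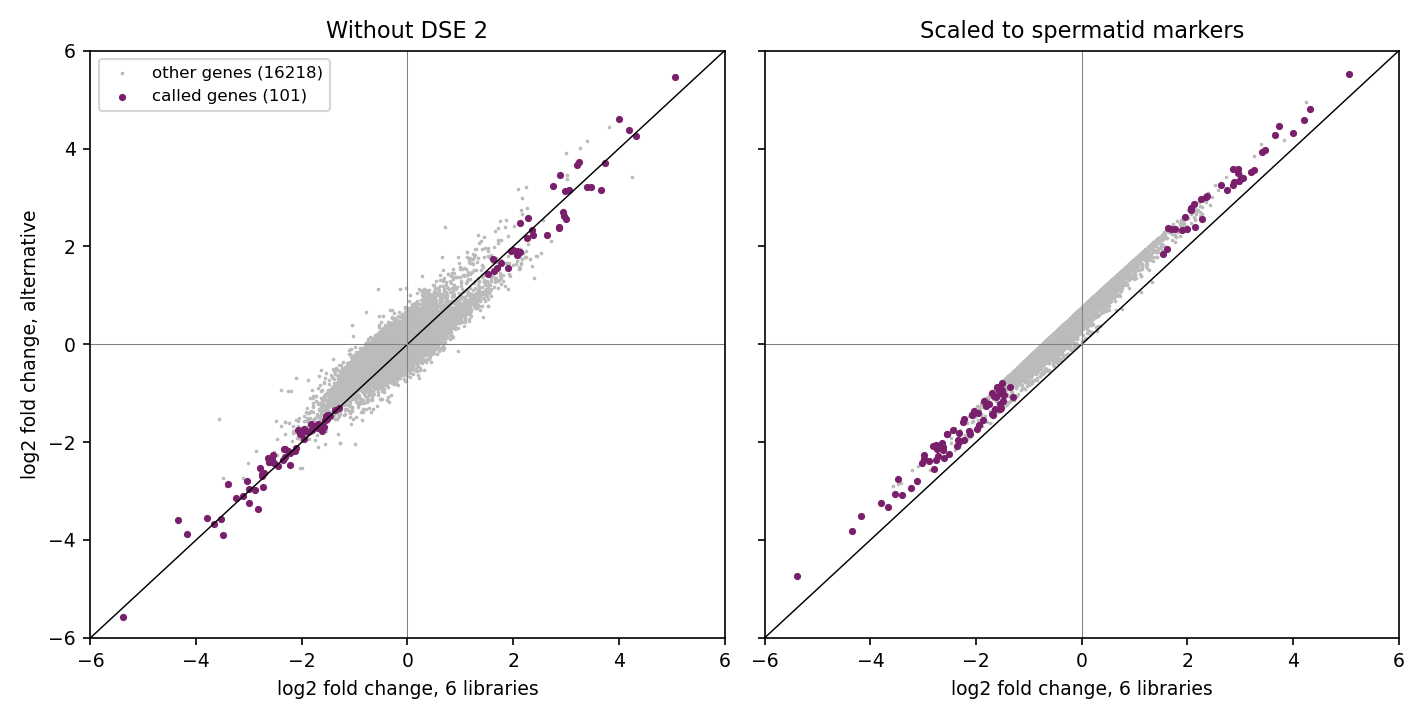
Log2 fold change of each of 16319 genes with 6 libraries (x axis) against that without DSE 2 (left) and that with libraries scaled to spermatid markers (right), with the line of equality. The 101 called genes are in purple, and since their libraries do not overlap between the breeds, their sign in the left panel was fixed. Scaling to spermatids lifts the median of all genes from -0.10 to 0.55.

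Leaving out DSE replicate 2 brought further named genes past the test. *FMO1*, a flavin-containing monooxygenase of drug metabolism, was at 4.94, 19.5 and 21.8 TPM in BMI and 183, 859 and 121 TPM in DSE. With 6 libraries its log2 fold change was 4.25 ± 0.78 (limma adjusted p = 0.069), and without replicate 2, its highest library, it was 3.41 and called. *CYP2D6*, at a locus that RefSeq names *CYP2D25*, was at 5.81, 7.55 and 7.43 TPM in BMI and 79.4, 6.5 and 61.7 TPM in DSE. *BANK1*, a scaffold of B cell signalling, was at 0.903, 1.76 and 1.41 TPM and 16.2, 1.86 and 26.4 TPM. In the latter 2 genes DSE replicate 2 lay in or near the BMI range while DSE replicates 1 and 3 lay above it. Their log2 fold changes were 3.17 and 3.22 without replicate 2, against 2.09 and 2.24 with it. Over 19 alternatives the adjusted p ranged from 2.0e-05 to 0.54 for *FMO1*, from 3.7e-04 to 0.74 for *CYP2D6* and from 1.2e-04 to 0.7 for *BANK1*.

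Of the 412 tested genes in the 26 lists, 5 were called without DSE replicate 2 (1.21%), against 1.84% of all tested genes, and apart from *GPX3* they are named here after their values were seen. *EGFL7*, an endothelial secreted factor, was at 82.7, 38.5 and 40 TPM in BMI and 219, 297 and 175 TPM in DSE, and *INHA*, the inhibin alpha subunit of Sertoli cells, at 48.4, 39.2 and 59.7 TPM and 118, 169 and 118 TPM. Both were separated between the breeds with all 6 libraries, at log2 fold changes of 2.14 ± 0.36 and 1.44 ± 0.27 (limma adjusted p = 0.055 and 0.071). The other endothelial markers did not share the direction of *EGFL7*, since the remaining 8 each had a lower mean in DSE without replicate 2. *UCHL1*, a marker of spermatogonia, was at 17.8, 16.2 and 14.5 TPM in BMI and 39.5, 15.6 and 40.5 TPM in DSE, where replicate 2 equalled the BMI libraries. *COL1A1*, the collagen I chain, was at 27, 38.7 and 32.9 TPM and 16, 30.2 and 11.7 TPM and was the single list member called lower.

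Pathway lists were read as counts and medians beside those of all genes, whose median was -0.10 with 6 libraries and -0.08 without DSE replicate 2. In the 6 libraries the lists of germ cell genes held no call and medians below that of all genes. These were 36 genes of the acrosome and fertilization (median -0.91, and -0.53 without replicate 2), 40 of the axoneme and flagellum (median -0.77, and -0.37 without replicate 2), 30 of meiotic recombination and synapsis (median -0.68, and -0.20 without replicate 2) and 21 of the piRNA pathway that silences transposons (median -0.62, and -0.29 without replicate 2). DSE replicate 2 was the lowest of all libraries for 34, 39, 27 and 20 of these genes, and for 6649 of all 16319 tested genes. The libraries of the breeds did not overlap for 21 of the 40 axoneme genes, all lower in DSE, where 17.1% of all tested genes were separated in that direction. The tail fibre gene *ODF1*, for example, was at 2084, 2203 and 2182 TPM in BMI and 1951, 628 and 1935 TPM in DSE, and the sperm surface gene *CRISP2* at 1870.2, 2487 and 1991 TPM and 1896, 610 and 1789 TPM. In both, DSE replicates 1 and 3 were close to the BMI range. For 17 genes of sperm energy metabolism the median was -0.46 with 6 libraries and 0.01 without replicate 2.

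Steroid and cholesterol genes leaned the other way with 6 libraries, without a call. The median was 0.31 over 21 genes of steroid hormone synthesis and metabolism and 0.37 over 23 of cholesterol synthesis and uptake. Without DSE replicate 2 these were -0.05 and 0.05. *CYP17A1*, the enzyme that commits steroids to androgens, was at 5825, 3780 and 4585 TPM in BMI and 4743, 13936 and 5782 TPM in DSE, and *SCARB1*, which takes up cholesterol from lipoproteins, at 432, 286 and 389.8 TPM and 347, 870.4 and 353 TPM. Replicate 2 alone was high for both genes. The 13 genes of the mitochondrial genome, all with a higher mean in DSE, had a median of 0.52, which was 0.16 without replicate 2.

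Antigen presentation held its direction without DSE replicate 2. None of its 11 tested genes was called, all 11 had a higher mean in DSE, with a median of 0.51, and 0.36 without replicate 2, and 7 had DSE libraries above all BMI libraries, as did 7.7% of all tested genes. *B2M*, the light chain of class I molecules, was at 416, 352 and 396 TPM in BMI and 836, 781 and 598 TPM in DSE (limma adjusted p = 0.21), and *CD74*, the invariant chain of class II, at 98.4, 92.5 and 90.5 TPM and 155, 158 and 106 TPM. The macrophage markers, whose cells express class II genes, had a median of 0.32 over 8 genes and 0.32 without replicate 2, and their part in these values was not tested. The list of Sertoli cell hormones and growth factors had a median of 0.47 over 13 genes, and 0.33 without replicate 2. *CLU*, the secreted chaperone clusterin, was at 945, 957 and 1155 TPM and 1219, 3558 and 1751 TPM there.

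The list of oxidative stress defence held the single called member of any list, *GPX3*. The median over its 30 tested genes was 0.20, and -0.02 without DSE replicate 2. *GPX4*, the peroxidase of the sperm midpiece, was at 2668, 2835 and 2834 TPM in BMI and 2840.3, 1048 and 2195 TPM in DSE, so that the abundant germ cell peroxidase did not share the direction of *GPX3*. Heat shock proteins and co-chaperones (27 genes, median -0.19), immediate early response genes (22 genes, -0.15) and collagens and extracellular matrix (25 genes, 0.03) had no call. Without replicate 2 their medians were -0.11, -0.16 and -0.33, and 20 of 25 matrix genes then had a lower mean in DSE. Among the cell type lists the medians with 6 libraries were -0.20 for spermatogonia, -0.79 for spermatocytes, -0.69 for spermatids, 0.47 for Sertoli cells and 0.53 for Leydig cells. They were 0.44 for peritubular and smooth muscle cells, -0.02 for endothelial cells, 0.03 over 3 lymphocyte genes, 0.45 over 3 red blood cell genes and 0.28 for the 1 tested gene of epididymal epithelium. Without replicate 2 the medians were -0.05 for spermatogonia, -0.34 for spermatocytes, -0.12 for spermatids, 0.20 for Sertoli cells and 0.06 for Leydig cells. They were then 0.19 for peritubular and smooth muscle cells, -0.38 for endothelial cells, -0.13 for lymphocytes, 0.10 for red blood cells and 0.06 for epididymal epithelium. A scaling shifts all genes of a library together, so that the median of all genes moved to 0.00076 with size factors, -0.48 with Sertoli cell scaling and 0.55 with spermatid scaling, and 18 of the 26 list medians changed sign with it. Leaving out replicate 2 placed 6 lists on the other side of the median of all genes, which were spermatogonia, endothelial cells, lymphocytes, sperm energy metabolism, interferon response and collagens and extracellular matrix.

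The most abundant members of the lists moved with DSE replicate 2 to different extents. In germ cells, the log2 fold change was -0.45 ± 0.67 (0.30 without replicate 2) for the transition protein gene *TNP1*, -0.65 ± 0.52 (-0.02 without replicate 2) for *ODF2* of the outer dense fibres and -0.71 ± 0.50 (-0.11 without replicate 2) for *IZUMO4*, a sperm protein gene. It was -0.87 ± 0.42 (-0.38 without replicate 2) for *SYCP3* of the synaptonemal complex, -0.92 ± 0.46 (-0.39 without replicate 2) for *SYCE3* of its central element, -0.76 ± 0.51 (-0.16 without replicate 2) for *IHO1*, needed for meiotic DNA breaks, and -0.79 ± 0.37 (-0.41 without replicate 2) for *TEX101*, a germ cell surface marker. In the piRNA pathway it was -0.75 ± 0.41 (-0.27 without replicate 2) for the helicase gene *DDX4* and -0.80 ± 0.40 (-0.34 without replicate 2) for *GTSF1*, a cofactor of PIWI proteins. Each of these genes lay lower in DSE with 6 libraries, none was called, and leaving out replicate 2 brought each closer to 0 or past it. In spermatogonia, *DMRT1* and *ETV5*, which encode transcription factors, differed by -0.32 ± 0.24 and -0.20 ± 0.34. Of the glycolytic genes, *ALDOA* differed by 0.51 ± 0.36 and *TPI1* by -0.75 ± 0.29, and of the stress and redox genes abundant in germ cells, *GSTM3* by -0.69 ± 0.50, *HSPB9* by -0.72 ± 0.48 and *HSP90AA1* by -0.19 ± 0.29.

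In somatic cells, the Sertoli cell genes *CLDN11*, of the blood-testis barrier, and *GATA4* differed by 0.75 ± 0.38 (0.34 without replicate 2) and 0.34 ± 0.29 (0.11 without replicate 2), and *PTGDS*, a prostaglandin synthase, by 0.39 ± 0.26. The contractile genes *TAGLN* and *ACTA2* of peritubular cells differed by 0.48 ± 0.35 (0.12 without replicate 2) and 0.42 ± 0.25 (0.26 without replicate 2), and *MSMO1* of cholesterol synthesis by 0.66 ± 0.37 (0.27 without replicate 2). The complement genes *C1QC* and *C1QA* of macrophages differed by 0.25 ± 0.24 and 0.40 ± 0.42, *PECAM1* of endothelium by -0.48 ± 0.30, and the lymphocyte genes *JCHAIN* and *CD4* by 0.43 ± 0.27 and 0.03 ± 0.36. None of these genes was called. Red blood cell transcripts varied between libraries of either breed, with *HBB*, a haemoglobin chain, at 57.2, 85.3 and 10.5 TPM in BMI and 87.6, 85 and 18.2 TPM in DSE, and *EPB42* of the red cell membrane at 0.48 ± 0.38. *ADAM28*, the 1 tested gene of epididymal epithelium, differed by 0.28 ± 0.26. Interferon-induced *IFI6* and the interferon regulator *IRF7* differed by 0.38 ± 0.31 and -0.95 ± 0.26, and the immediate early genes *KLF4* and *DUSP1* by -0.85 ± 0.34 and 0.16 ± 0.36. The matrix genes *SPARC* and *TIMP3* differed by 0.03 ± 0.40 (-0.44 without replicate 2) and 0.04 ± 0.50 (-0.55 without replicate 2), and the mitochondrial genes *COX3* and *ND3* differed by 0.17 ± 0.45 and 0.52 ± 0.47.

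**Figure D4:**
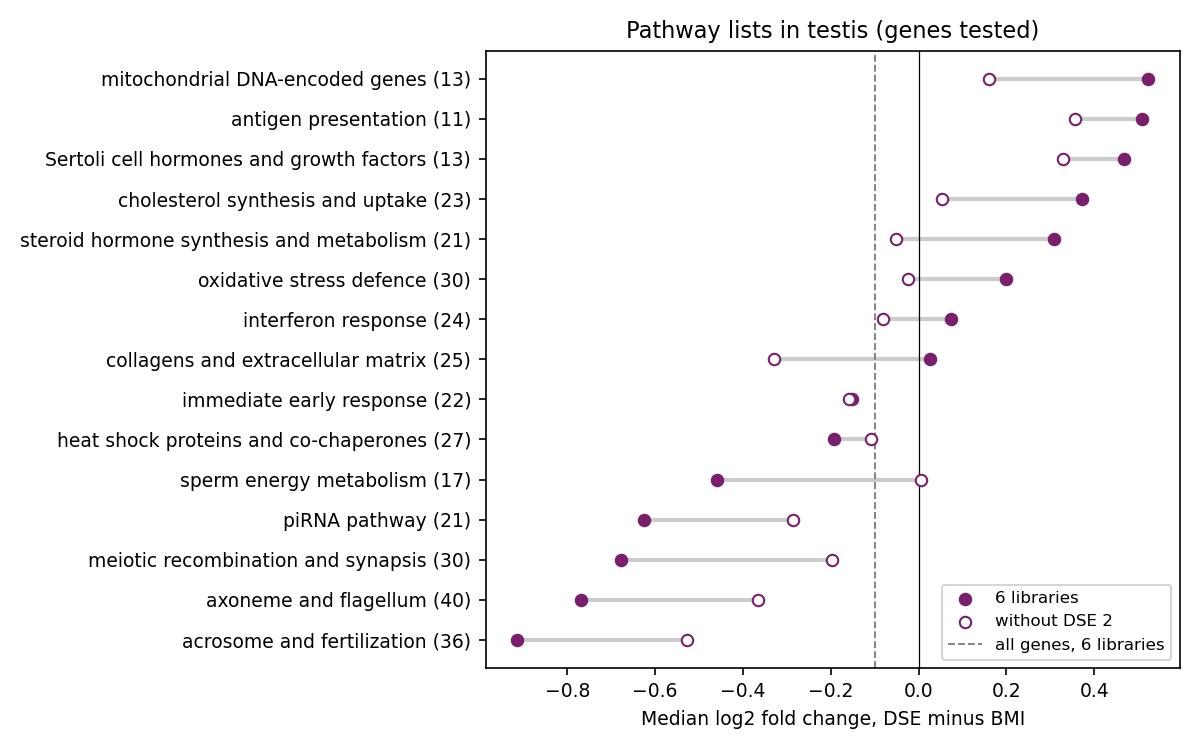
Median log2 fold change (DSE minus BMI) of 15 pathway lists with 6 libraries (filled) and without DSE 2 (open), with the number of genes tested in brackets. The dashed line is the median of all genes, -0.10, and the lists of germ cell genes lie below it, from -0.91 for the acrosome to -0.46 for sperm energy metabolism. Without DSE 2 the acrosome list lies at -0.53 and the antigen presentation list at 0.36.

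The question whether these genes differed in other organs was put to the 24 libraries of epididymis, vesicular, prostate and bulbourethral gland, which did not enter the testis fit. The sources do not say whether the same boars gave all glands. In the mean breed difference of the 4 glands, 47 genes were called (0.288%), and 5 of the 101 testis genes were among them in the same direction, 4 higher (0.153% of all genes) and 1 lower (0.135%) in DSE. These were the SLA fusion locus (log2 fold change 3.91, limma adjusted p = 3.4e-08), ENSSSCG00000060989 (1.80), ENSSSCG00000060358 (1.59), ENSSSCG00000041773 (1.15) and *TYR* (-1.93, limma adjusted p = 9.2e-04). The fusion locus was at 3.12 to 14.1 TPM in BMI epididymis and 85.9 to 131 TPM in DSE epididymis. *TYR* was listed at 0 in each DSE library of epididymis, vesicular and prostate gland and did not exceed 0.152 TPM in DSE bulbourethral gland, whereas the BMI libraries of the 4 glands lay between 0.629 and 10 TPM. Gland by gland, with the share of all genes called there in either direction in brackets, the same direction was called for 4 of the 101 genes in epididymis (0.306%), for 4 in prostate gland (0.319%), for 3 in bulbourethral gland (0.172%) and for 2 in vesicular gland (0.227%), and *TYR* was called in none of them alone. The 4 of epididymis were the SLA fusion locus, ENSSSCG00000060358, ENSSSCG00000041773 and *TMEM179* (-2.88 ± 0.22 in testis and -2.08 in epididymis). In epididymis, 2 more of the 101 were called in the opposite direction, the fusion locus ENSSSCG00000057701_ENSSSCG00000039985 (-2.99 ± 0.30 in testis and 1.29 in epididymis) and novelGene_369 (-2.07 ± 0.32 and 1.16), and in the other 3 glands none was.

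Of the 101 genes, 48 (47.5%) were under 1 TPM in all 24 other libraries, against 13.2% of all tested genes. Testis had the highest mean of the 5 organs for 75 of the 101 genes (74.3%), and for 52.2% of all tested genes. The 46 genes with at least 1 TPM in at least 3 of the other libraries had the same sign there in 29 cases. These were 17 of 23 genes higher in DSE testis and 12 of 23 genes lower in it. The difference between the testis contrast and the mean of the other glands was itself tested in the 30 libraries, which include those of testis, and 812 genes were called (4.98%), 171 higher (1.05%) and 641 lower (3.93%) in DSE testis. All groups of that fit shared a single estimate of the spread of a gene, so the spread within DSE testis was averaged with that of the other glands. Without DSE replicate 2 the 641 became 309. The 101 genes were chosen for their difference in testis, so for those near 0 in the other glands this difference repeats the testis value and is a description. *STING1*, for example, differed by -2.23 in testis and by 0.16 in the mean of the other glands. Short of the 2-fold threshold, further called genes also differed in the mean of the other glands (limma adjusted p below 0.05). The direction was that of testis for *AKR1E2* (0.80), ENSSSCG00000014314 (0.72), novelGene_2154 (0.38), novelGene_585 (-0.96), ENSSSCG00000056213 (-0.91) and *TMEM179* (-0.52). The limma adjusted p was 0.0031 for *AKR1E2* and 0.045 for ENSSSCG00000056213. Only novelGene_369, lower in DSE testis, went the other way and was higher there by 0.79 (limma adjusted p = 0.0011). The 6 genes with the lowest adjusted p of the difference between testis and the other glands were loci without a symbol, novelGene_314, novelGene_2648, novelGene_2581, novelGene_3867 and the antisense loci of ENSSSCG00000011511 and ENSSSCG00000056385. All 6 were under 1 TPM in each library of the other glands, with little or no spread there. They stood at 11.6, 8.79 and 8.8 TPM in BMI against 0.219, 0 and 0.185 TPM in DSE for novelGene_314, and at 0 in BMI against 6.47, 6.24 and 9.57 TPM in DSE for novelGene_3867.

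**Figure D5:**
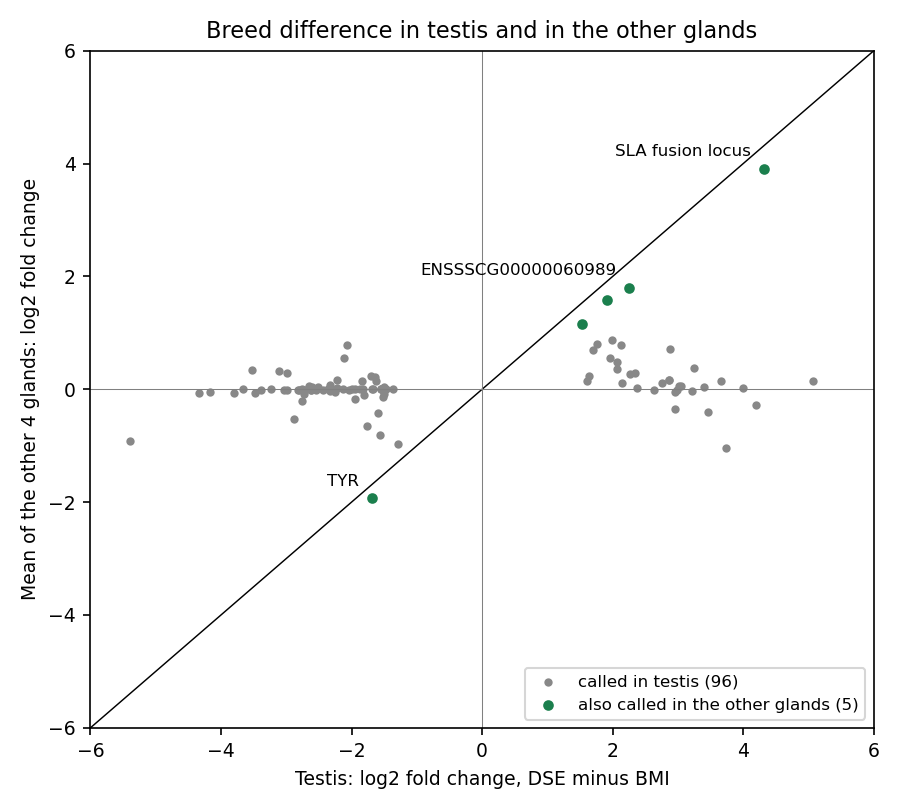
Log2 fold change (DSE minus BMI) of the 101 genes called in testis (x axis) against the mean of the other 4 glands (y axis), with the line of equality. Each point is a gene, most lie near 0 on the y axis, and the 5 genes also called in the other glands, in green, lie near the line, with the SLA fusion locus at 4.32 and 3.91.

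Long-read sequencing of 1 testis library per breed gave another readout of the same genes, with 457778 full-length reads in DSE and 455023 in BMI. It has no replicate check, intervals would cover counting error only, and the loci outside the Ensembl annotation were themselves defined from such reads. Of the 101 genes, 75 had at least 1 full-length read, of which 65 had more reads in the breed that RNA-seq placed higher, 7 had equal counts and 3 had more in the other breed. Of all tested genes with a read, 50.6% had more in the breed placed higher. With at least 10 reads it was 16 of 16 genes, against 50.7%. The shares of all tested genes include those with little breed difference, and genes with a like difference were not compared. *GPX3* had 512 reads in DSE and 95 in BMI, *PSAT1* 292 and 106, and *FMO1* 297 and 30. ENSSSCG00000056213 had 3 reads in DSE and 70 in BMI, and *ANKRD61* 4 and 51. *NPTX2* and *PACSIN1* had 6 and 12 reads in DSE and 0 in BMI, where a count of 0 allows up to 3 reads.

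Small RNA libraries of the same labels were read for the composition of the samples, in RPM, reads of a miRNA scaled to a fixed total per library. miR-34c, which is abundant in meiotic and haploid germ cells, was at 4434, 2371 and 3652 RPM in BMI replicates 1 to 3 and 4906, 1218 and 4939 RPM in DSE replicates 1 to 3. miR-202-5p, a miRNA of Sertoli cells, was at 4993, 5127 and 6712 RPM in BMI and 7457, 11254 and 8167 RPM in DSE. The other arm, miR-202-3p, was at 287, 298 and 331 RPM and 422, 429.9 and 525 RPM. DSE replicate 2 was the lowest of the 6 small RNA libraries for miR-34c and the highest for miR-202-5p, whereas DSE replicate 3 was the highest for miR-202-3p. By the paper's quality statistics, the small RNA reads of both DSE replicate 2 and DSE replicate 3 were shorter on average than those of the other testis libraries. These are descriptions of 6 libraries, with no test.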

How the data were processed

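RNA-seq was performed on 3 testis libraries of each breed. The methods describe poly-T purification of mRNA, the labels a depletion of rRNA. The authors quantified transcripts with Salmon 1.9.0 on Sscrofa11.1 with Ensembl genes merged with isoforms of their Iso-seq, and deposited TPM per transcript, which hold no read counts per gene. Deposited Iso-seq values are full-length read counts, and deposited small RNA values are RPM. TPM were summed to genes by the deposited annotation. Genes with at least 1 TPM in at least 3 of 6 libraries were fitted as log2(TPM + 1) with limma 3.58.1 in R 4.3.3 (eBayes with trend, Benjamini-Hochberg over 16319 genes), after a test on simulated data. The labels do not say that libraries are separate boars, so p-values measure the spread between these libraries, which may be technical. Replicate numbers did not pair libraries (correlations of deviations -0.22, -0.03 and 0.16). Other glands entered only the tests across glands.

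The marker and pathway lists were typed from general knowledge, and members, lists and tests were chosen with earlier results of these data known. Every called gene with a symbol was named, as were the 2 called genes without a symbol with the largest change in each direction, up to 6 genes in each direction of the fit without DSE replicate 2, called list members, the 2 most abundant members of each list and the 6 genes with the lowest p of the difference between testis and other glands. RefSeq names were taken by overlap on Sscrofa11.1. Alternatives covered the pseudocount (0.1, 0.5), filters, size factors, scaling to cell markers, a spermatid covariate, all 30 libraries, no trend, transcripts, thresholds and each library left out.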

Additional observations from a re-analysis of the deposited data

Results flagged for a closer look

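The results below were picked out because the breed difference in testis differed from the mean breed difference of the other 4 glands by a test of that difference (limma on 30 libraries, adjusted p below 0.05 and at least 2-fold). Each value is the log2 difference in testis minus that in the other glands, on the log2(TPM + 1) scale, so that of a gene listed at 0 in a breed depends on the pseudocount. Among the called testis genes that were higher in DSE, it was 4.92 for *NPTX2*, 4.48 for *PACSIN1*, 3.86 for *ADRA1D*, 3.30 for *GALNT4*, 2.998 for *C1QTNF5*, 2.71 for *KLHL31*, 2.69 for *MGARP* and 2.65 for *MAOB*. Among those lower in DSE, it was -4.13 for *IFITM5*, -3.43 for *KRT36*, -2.55 for *ANKRD61*, -2.54 for *UBD*, -2.40 for *YJEFN3*, -2.39 for *STING1*, -2.36 for *TMEM179*, -2.25 for *SAP25*, -1.95 for *GLP2R*, -1.93 for *SCRG1*, -1.86 for *GOLGA4*, -1.70 for *CHST7*, -1.55 for *FGF19*, -1.54 for *CNGA3* and -1.42 for *SV2B*. For loci without a symbol it was 3.98 for novelGene_2514, -4.48 for ENSSSCG00000056213, -4.28 for novelGene_691, -3.24 for novelGene_314, -3.67 for novelGene_2648, -2.13 for novelGene_2581, -2.31 for novelGene_ENSSSCG00000011511_AS, -2.65 for novelGene_ENSSSCG00000056385_AS and 2.99 for novelGene_3867. The difference was also past the test for genes that were not called in testis with 6 libraries, at 3.91 for *FMO1*, 2.55 for *EGFL7*, 1.99 for *CYP2D6* and 1.31 for *INSL3*. These genes passed with a spread estimated over all 30 libraries, in which the spread within DSE testis is averaged with that of the other glands. *INSL3*, the Leydig cell hormone, was highest in DSE replicate 2, as were the Leydig cell markers, a list that includes it. In DSE replicate 1 it lay above all BMI libraries, whereas the mean of the markers, 9.23, lay in the BMI range of 9.22 to 9.63. The part of cell composition in the value of *INSL3* was not tested. Genes with a single outlying library were not searched for, since each group held 3 libraries. Most of these genes were chosen for their difference in testis, and for those near 0 in the other glands the value repeats the testis difference. A listed gene can also differ between the breeds elsewhere. *TMEM179* was called lower in DSE epididymis too, at -2.08 (limma adjusted p = 8.7e-05), and was near 0 TPM in vesicular, prostate and bulbourethral gland. ENSSSCG00000056213 was also lower in DSE in the mean of the other glands, at -0.91 (limma adjusted p = 0.045).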

How the results depend on the processing

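TPM carry no read counts per gene, so low genes cannot be given an interval, and 3 libraries per breed limit the smallest difference that can be called. The 36 higher and 65 lower calls became 9 and 23 with no filter, 87 and 185 transcripts in place of genes, and 222 and 760 with all 30 libraries in the fit. Scaled to Sertoli markers they were 16 and 57, scaled to spermatid markers 8 and 2, and with the spermatid score as a covariate 144 and 122. Without DSE replicate 2 and scaled to Sertoli or spermatid markers, 2 alternatives chosen after seeing the data, they were 145 and 400, or 165 and 96. A threshold of 2 on the log2 scale left 28 and 39. Leaving out single libraries gave 7 to 150 higher and 13 to 222 lower genes, and the lowest counts were those without a BMI library, where 7, 6 and 6 of the 36 and 17, 13 and 16 of the 65 remained called. The replicate block gave 100 higher and 156 lower genes, including all 101, although the numbers do not pair the libraries and only the libraries numbered 3 correlated best with their own number. With the block the difference between testis and the other glands gave 175 and 636 genes, and the calls shared with the other glands were 4 and 1 as without it. The difference between testis and the other glands, 171 and 641, was 113 and 318 with a pseudocount of 0.1 and 129 to 322 and 309 to 1282 with single libraries left out. Of the called testis genes, 4 and 1 were called in the other glands, and 6 and 3 with a pseudocount of 0.1. The other pseudocounts, filters, size factors and trend kept both testis counts within 1.5 times. The cause of these shifts was not tested.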
